A study of Rattus norvegicus with 52 samples.

Results

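The 10 genes described here are the 4 ErbB receptor genes (*Egfr*, *Erbb2*, *Erbb3* and *Erbb4*) and 6 genes for ligands of the EGF family (*Areg*, *Ereg*, *Btc*, *Hbegf*, *Tgfa* and *Epgn*). They were chosen by symbol and are 10 of the 17356 genes counted in each of 48 RNA-seq libraries of sorted rat mammary epithelium. All rats were females. At 9 weeks of age, the ACI rats either lacked *Cdkn1b* (*Cdkn1b*-/-) or were *Cdkn1b*+/+. Each genotype gave 2 libraries each of basal cells, mature luminal cells, PNA+ luminal progenitors and Cd49b+ luminal progenitors. *Cdkn1b* encodes the cell cycle inhibitor p27, and its small germline deletions were made by CRISPR in Sprague-Dawley zygotes and then bred onto the ACI strain, so that every cell of these animals carried them. Rats for sorting came from crosses of heterozygous rats at backcross generation N1 or N6, and the labels do not give the generation of a library. At 4 weeks, *Cdkn1b*+/+ rats gave 3 basal and 3 luminal libraries and *Cdkn1b*-/- rats 2 basal and 3 luminal libraries. At 6 weeks, *Cdkn1b*+/+ rats gave 3 basal and 2 luminal libraries and *Cdkn1b*-/- rats 2 of each. The labels of 4 and 6 weeks each stand for a range of ages that starts 1 week earlier, so animals of 1 group may differ in age. In a separate estradiol (E2) experiment, animals of the ACI strain and of the Brown Norway (BN) strain received an implant at 9 weeks of age, either empty (control) or holding E2, and cells were collected 3 weeks later. ACI rats gave 2 basal and 2 luminal libraries per treatment, and BN rats 1 of each, with BN cells pooled from 2 animals. The labels of these luminal libraries also name Cd49b and PNA, without saying how the markers were used, and those of 4 and 6 weeks do not. Each library stands for a sorted pool of cells, and the labels of the 9-week libraries name no animal. All p-values therefore measure the spread between libraries, part of which may be technical.

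The ErbB receptors are tyrosine kinases that pair with one another after ligand binding. EGFR and ERBB4 bind ligand and signal, ERBB2 has no known ligand and acts as a partner, and ERBB3 binds ligand but has little kinase activity of its own. Amphiregulin, TGF-alpha and epigen bind EGFR, whereas HB-EGF, betacellulin and epiregulin bind EGFR and ERBB4. The ligands are made as membrane proteins and are released by shedding proteases such as ADAM17. In the mammary gland, amphiregulin is known as a target of the estrogen receptor in luminal cells that is needed for ductal growth at puberty, and ERBB4 is known for its part in lobuloalveolar differentiation.

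Each library held between 7985619 and 33859550 reads assigned to genes. Levels are given as counts scaled to the total of assigned reads (CPM), which are not corrected for transcript length and are compared here between samples of 1 gene, not between genes. The summed CPM of the basal marker list (*Krt5*, *Krt14* and others) was 16728 to 26384 in 9-week basal cells, 288 to 2709 in luminal progenitors and 209.7 to 474 in mature luminal cells, and luminal keratin and adhesion markers summed to 5353 to 9310.3, 18255 to 31747 and 27994 to 50632 CPM in the same order. The hormone-sensing markers that would mark mature luminal cells (*Esr1*, *Pgr*, *Prlr* and *Foxa1*) went against the labels, with 82.9 to 314 CPM in progenitors and 31.2 to 110.0 in mature luminal cells, ranges that overlapped. The luminal progenitor list (*Kit*, *Elf5* and others) summed to 599 to 1657 CPM in *Cdkn1b*-/- and 410 to 1092 CPM in *Cdkn1b*+/+ progenitors. Its level in mature luminal cells is not given here, and the luminal populations are named below by their labels. Fibroblast markers reached 2969 CPM in basal cells. *Cdkn1b* itself was lower in every 9-week *Cdkn1b*-/- library (1.59 to 4.24 CPM) than in every *Cdkn1b*+/+ library (6.00 to 18.0 CPM), and in the younger rats the genotypes overlapped only in 6-week basal cells, through *Cdkn1b*+/+ library 3 (3.13 CPM). Fewer genes were detected in E2-treated ACI basal library 1 (7716 genes), E2-treated ACI luminal library 1 (9184) and 6-week *Cdkn1b*-/- luminal library 2 (9241) than in the others (10011 to 15403), and fits without them are given beside the results of the E2 experiment and of the 6-week rats.

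The promoters of 4 members are printed as examples of the contrasts between basal and luminal cells: *Epgn* was higher in basal cells at 4 and 9 weeks, *Egfr* in basal cells at 4 and 6 weeks and over progenitors at 9 weeks, *Erbb4* in luminal cells at 4 and 9 weeks, and *Areg* in luminal cells at 4 and 6 weeks. *Erbb2*, *Erbb3*, *Btc* and *Hbegf*, which were lower in basal cells at 9 weeks, are not printed. Each sequence runs 5′ to 3′ from 250 bases before the annotated RefSeq start to 50 bases after it, and capitals mark matches, on either strand, to the searched motifs. RefSeq promoters of the GRCr8 build were found for 8 of the 10 members, without *Erbb3* and *Ereg*, and the reads themselves had been aligned to the rn6 build.
Egfr (GRCr8, chr14:95378376-95378675, plus strand): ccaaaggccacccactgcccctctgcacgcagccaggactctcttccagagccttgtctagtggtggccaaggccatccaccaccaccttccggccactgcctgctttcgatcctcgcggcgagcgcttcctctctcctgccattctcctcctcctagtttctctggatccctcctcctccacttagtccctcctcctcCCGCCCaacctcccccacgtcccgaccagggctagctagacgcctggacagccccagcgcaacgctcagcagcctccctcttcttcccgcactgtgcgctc
Epgn (GRCr8, chr14:17368951-17369250, minus strand): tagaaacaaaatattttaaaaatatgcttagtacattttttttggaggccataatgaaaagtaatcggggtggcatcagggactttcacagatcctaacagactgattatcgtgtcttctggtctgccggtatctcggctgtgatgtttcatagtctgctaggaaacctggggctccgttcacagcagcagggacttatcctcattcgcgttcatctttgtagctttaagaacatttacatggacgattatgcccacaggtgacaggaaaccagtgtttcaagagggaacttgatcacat
Erbb4 (GRCr8, chr9:78045557-78045856, minus strand): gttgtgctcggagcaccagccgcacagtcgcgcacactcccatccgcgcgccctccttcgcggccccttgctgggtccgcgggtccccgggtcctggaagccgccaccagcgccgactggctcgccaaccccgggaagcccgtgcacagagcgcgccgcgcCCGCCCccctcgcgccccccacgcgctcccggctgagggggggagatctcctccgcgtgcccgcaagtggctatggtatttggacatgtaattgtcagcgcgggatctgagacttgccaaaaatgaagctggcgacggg
Areg (GRCr8, chr14:17265592-17265891, minus strand): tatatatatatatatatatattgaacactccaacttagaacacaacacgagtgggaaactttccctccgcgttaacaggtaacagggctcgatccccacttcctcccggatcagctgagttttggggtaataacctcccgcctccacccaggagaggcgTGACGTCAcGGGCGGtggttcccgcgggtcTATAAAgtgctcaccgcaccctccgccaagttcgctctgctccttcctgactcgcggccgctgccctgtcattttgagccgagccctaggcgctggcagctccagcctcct
*Areg* held a TATA box (TATAAA) starting at position -61 from the start site, a motif in 14.2% of the 33469 promoters searched, and a cAMP response element (TGACGTCA) at -91, a motif in 1.83% of them. The GC box (GGGCGG) was in 6 of the 8 member promoters (*Egfr*, *Erbb2*, *Erbb4*, *Areg*, *Btc* and *Tgfa*) against 33.1% of all promoters, and the AP-1 site (TGANTCA) was in none of the 8 against 7.33% of all. The GC content was 42.3% for *Epgn*, 56.0% for *Areg*, 64.3% for *Egfr* and 70.3% for *Erbb4*, and the median of all promoters was 51.7%. *Btc*, *Areg*, *Ereg* and *Epgn* lie in that order on chromosome 14 of GRCr8. A match to these letters is a description of the sequence and not evidence of binding.

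In 9-week glands, the receptors divided between the compartments: *Egfr* was higher in basal cells than in luminal progenitors, and *Erbb2*, *Erbb3* and *Erbb4* were lower in basal cells than in both luminal populations. *Egfr*, the receptor of amphiregulin, was 141 and 146 CPM in *Cdkn1b*+/+ libraries and 105 and 55.9 CPM in *Cdkn1b*-/- libraries of basal cells. It was 30.0 and 69.3 CPM in *Cdkn1b*+/+ libraries and 45.0 and 22.8 CPM in *Cdkn1b*-/- libraries of mature luminal cells, and in the 8 luminal progenitor libraries it ranged from 20.7 to 78.4 with a median of 35.4. The 2 *Cdkn1b*+/+ basal libraries were the highest of all 16, and *Cdkn1b*-/- basal library 2 fell within the luminal range. *Egfr* was higher in basal cells than in progenitors (log2 fold change 1.31, standard error 0.40, adjusted p = 0.016 by edgeR's quasi-likelihood test), a call that was lost without *Cdkn1b*-/- basal library 1 (log2 fold change 1.04, adjusted p = 0.088). Against mature luminal cells the difference did not pass the threshold of 0.05 (log2 fold change 1.21, standard error 0.49, adjusted p = 0.065). It passed with DESeq2 (log2 fold change 1.18, adjusted p = 0.041) and when the libraries of 1 number and genotype were treated as a block (log2 fold change 1.36, adjusted p = 2.6e-04). It also passed without *Cdkn1b*-/- mature luminal library 1 (adjusted p = 0.043) or *Cdkn1b*+/+ mature luminal library 2 (adjusted p = 0.040). In these bulk samples, fewer cells of a type and less RNA per cell cannot be told apart. Here and below, tests of progenitors against other populations count the PNA+ and Cd49b+ libraries of 1 number and genotype as separate. The deviations of such pairs from the group means correlated (r = 0.63 in *Cdkn1b*-/- and 0.79 in *Cdkn1b*+/+ libraries), and the pairs were not summed for population differences.

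*Erbb2*, the ligandless partner receptor, was 9.40 and 13.5 CPM in *Cdkn1b*+/+ libraries and 14.6 and 11.1 CPM in *Cdkn1b*-/- libraries of basal cells, 37.7 and 31.8 CPM in *Cdkn1b*+/+ libraries and 43.7 and 52.3 CPM in *Cdkn1b*-/- libraries of mature luminal cells, and ranged from 33.0 to 46.7 with a median of 40.6 in progenitors. No basal library reached the lowest luminal one. The differences were log2 fold change -1.70, standard error 0.16, adjusted p = 2.9e-06 against progenitors and log2 fold change -1.88, standard error 0.17, adjusted p = 6.0e-06 against mature luminal cells. *Erbb3*, the neuregulin receptor with an impaired kinase, was 56.1 and 85.7 CPM in *Cdkn1b*+/+ libraries and 57.4 and 40.2 CPM in *Cdkn1b*-/- libraries of basal cells and 130.2 and 168 CPM in *Cdkn1b*+/+ libraries and 191 and 114 CPM in *Cdkn1b*-/- libraries of mature luminal cells, with a range in progenitors from 105 to 244 with a median of 186. All 12 luminal libraries were above all 4 basal libraries (log2 fold change -1.61, standard error 0.32, adjusted p = 9.9e-04 against progenitors, log2 fold change -1.51, standard error 0.35, adjusted p = 0.0038 against mature luminal cells).

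Of the 4 receptors, *Erbb4* had the largest fitted difference in both comparisons. It was 0.417 and 0.794 CPM in *Cdkn1b*+/+ libraries and 0.311 and 0.230 CPM in *Cdkn1b*-/- libraries of basal cells, 5.06 and 4.34 CPM in *Cdkn1b*+/+ libraries and 1.05 and 8.83 CPM in *Cdkn1b*-/- libraries of mature luminal cells and 28.8 and 16.4 CPM in *Cdkn1b*+/+ libraries and 3.26 and 10.5 CPM in *Cdkn1b*-/- libraries of PNA+ progenitors. In Cd49b+ progenitors it was 31.3 and 13.5 CPM in *Cdkn1b*+/+ libraries and 4.05 and 11.5 CPM in *Cdkn1b*-/- libraries. Every basal library was under 1 CPM and every luminal library above it (log2 fold change -4.90, standard error 0.60, adjusted p = 2.4e-05 against progenitors and log2 fold change -3.63, standard error 0.60, adjusted p = 3.8e-04 against mature luminal cells). The 3 genes whose levels followed *Erbb4* most closely over the 16 libraries were *Esr1*, *Foxa1* and *Prlr*, with Pearson r of 0.98, 0.98 and 0.97 on log2 CPM, and all 3 belong to the hormone-sensing marker list. These libraries share populations and genotypes, so the r values are a description and carry no p.

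**Figure D1:**
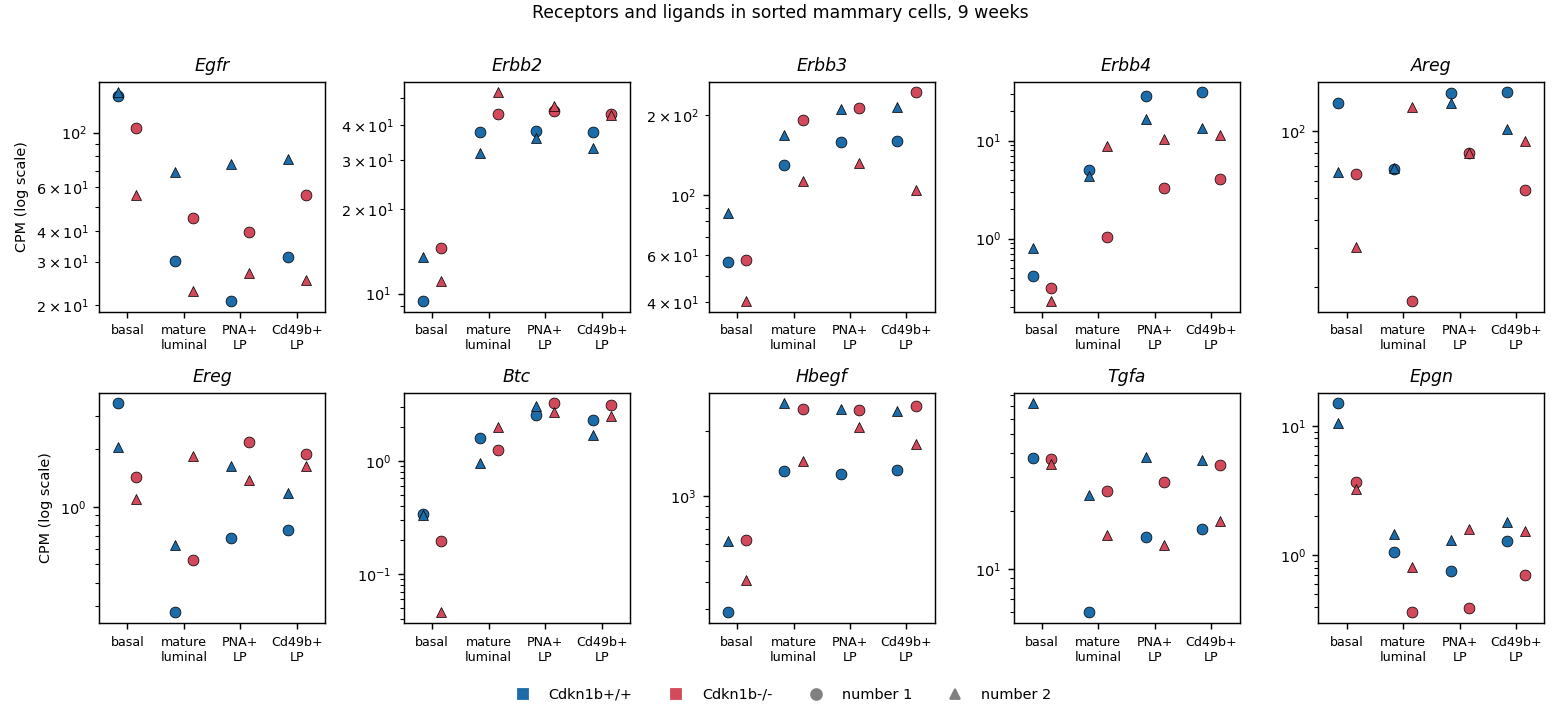
CPM (log axis) of each of the 10 genes in the 16 libraries of 9-week rats, 1 panel per gene, by sorted population, with 1 point per library, colour for the genotype and shape for the library number. Egfr and Epgn were highest in Cdkn1b+/+ basal libraries, and Erbb2, Erbb3, Erbb4, Btc and Hbegf sat lower in all 4 basal libraries than in all 12 luminal libraries.

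Among the ligands, *Btc* and *Hbegf* followed the luminal receptors and *Epgn* followed *Egfr*. *Hbegf*, for heparin-binding EGF, was 288 and 618 CPM in *Cdkn1b*+/+ libraries and 626 and 406 CPM in *Cdkn1b*-/- libraries of basal cells and 1308 and 2681 CPM in *Cdkn1b*+/+ libraries and 2532 and 1456 CPM in *Cdkn1b*-/- libraries of mature luminal cells. Its 8 progenitor libraries ranged from 1262 to 2603 with a median of 2276. Every luminal library exceeded every basal one (log2 fold change -2.07, standard error 0.38, adjusted p = 5.7e-04 against progenitors and log2 fold change -2.20, standard error 0.41, adjusted p = 9.6e-04 against mature luminal cells). *Btc*, for betacellulin, was 0.341 and 0.334 CPM in *Cdkn1b*+/+ libraries and 0.194 and 0.0460 CPM in *Cdkn1b*-/- libraries of basal cells and 1.58 and 0.948 CPM in *Cdkn1b*+/+ libraries and 1.25 and 1.97 CPM in *Cdkn1b*-/- libraries of mature luminal cells, and it ranged from 1.67 to 3.19 with a median of 2.60 in progenitors. Levels in basal cells were all under 0.5 CPM and those in luminal cells all above it (log2 fold change -3.62, standard error 0.37, adjusted p = 5.9e-06 against progenitors, log2 fold change -2.88, standard error 0.39, adjusted p = 8.8e-05 against mature luminal cells). *Epgn*, for epigen, was 14.9 and 10.6 CPM in *Cdkn1b*+/+ libraries and 3.66 and 3.27 CPM in *Cdkn1b*-/- libraries of basal cells and 1.07 and 1.46 CPM in *Cdkn1b*+/+ libraries and 0.363 and 0.807 CPM in *Cdkn1b*-/- libraries of mature luminal cells, and ranged from 0.395 to 1.80 with a median of 1.30 in progenitors. Its 4 basal libraries were above all 12 luminal libraries (log2 fold change 2.54, standard error 0.32, adjusted p = 2.7e-05 against progenitors, log2 fold change 2.82, standard error 0.41, adjusted p = 1.4e-04 against mature luminal cells).

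*Ereg*, for epiregulin, was low throughout. It was 3.49 and 2.05 CPM in *Cdkn1b*+/+ libraries and 1.44 and 1.10 CPM in *Cdkn1b*-/- libraries of basal cells and 0.278 and 0.632 CPM in *Cdkn1b*+/+ libraries and 0.524 and 1.84 CPM in *Cdkn1b*-/- libraries of mature luminal cells, and the groups overlapped. Its difference passed against mature luminal cells (log2 fold change 1.23, standard error 0.44, adjusted p = 0.043) but not against progenitors (log2 fold change 0.45, standard error 0.36, adjusted p = 0.32). In *Cdkn1b*+/+ libraries alone the difference from mature luminal cells passed (log2 fold change 2.37, adjusted p = 0.020), and in *Cdkn1b*-/- libraries alone it did not (log2 fold change 0.09, adjusted p = 0.94). Against progenitors these values were 1.41 (adjusted p = 0.048) and -0.51 (adjusted p = 0.49). The test of the difference between genotypes gave adjusted p = 1.0 against mature luminal cells and 0.64 against progenitors. The call against mature luminal cells was lost without any 1 of 5 libraries: *Cdkn1b*-/- basal 1 or 2, *Cdkn1b*+/+ basal 1, *Cdkn1b*-/- mature luminal 1 or *Cdkn1b*+/+ mature luminal 1 (adjusted p from 0.058 to 0.15). *Tgfa*, for TGF-alpha, was 37.9 and 72.3 CPM in *Cdkn1b*+/+ libraries and 37.3 and 35.2 CPM in *Cdkn1b*-/- libraries of basal cells and 5.99 and 24.3 CPM in *Cdkn1b*+/+ libraries and 25.5 and 15.0 CPM in *Cdkn1b*-/- libraries of mature luminal cells, and ranged from 13.4 to 38.1 with a median of 23.1 in progenitors. Its differences did not pass (log2 fold change 0.85, standard error 0.42, adjusted p = 0.11 against progenitors, log2 fold change 1.18, standard error 0.51, adjusted p = 0.082 against mature luminal cells). With libraries of 1 number and genotype as a block both passed (log2 fold change 0.97, adjusted p = 3.4e-04 against progenitors, log2 fold change 1.37, adjusted p = 1.5e-04 against mature luminal cells), and the latter also without *Cdkn1b*+/+ mature luminal library 2 (adjusted p = 0.016). *Areg*, for amphiregulin, was 134 and 65.4 CPM in *Cdkn1b*+/+ libraries and 64.3 and 30.2 CPM in *Cdkn1b*-/- libraries of basal cells and 67.9 and 68.4 CPM in *Cdkn1b*+/+ libraries and 17.2 and 129 CPM in *Cdkn1b*-/- libraries of mature luminal cells, and ranged from 54.5 to 150.4 with a median of 96.4 in progenitors. Its basal and luminal levels overlapped and neither difference passed (log2 fold change -0.54 ± 0.37, adjusted p = 0.24, with ± for the standard error here and in later log2 fold changes, against progenitors, log2 fold change -0.13 ± 0.42, adjusted p = 0.83 against mature luminal cells).

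In all, 7 of the 10 members passed between basal cells and progenitors, 2 higher and 5 lower in basal cells, where 50.0% of the 12809 genes tested passed. Between basal and mature luminal cells, 7 of 10 passed, again 2 higher and 5 lower, against 38.7% of all genes. The libraries of the 2 populations did not overlap for 6 of the 10 members against progenitors and for 7 against mature luminal cells, where 26.1% (15.1% higher and 11.0% lower in basal cells) and 30.5% (19.6% and 10.9%) of all genes did not overlap. Marker levels of other cell types also differed between the sorts: fibroblast markers summed to 588 to 2969 CPM in basal, 168 to 1532 in progenitor and 108 to 776 in mature luminal libraries, and endothelial markers to 57.6 to 113, 77.9 to 717 and 41.4 to 72.7 CPM. Their part in these differences was not tested.

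**Figure D2:**
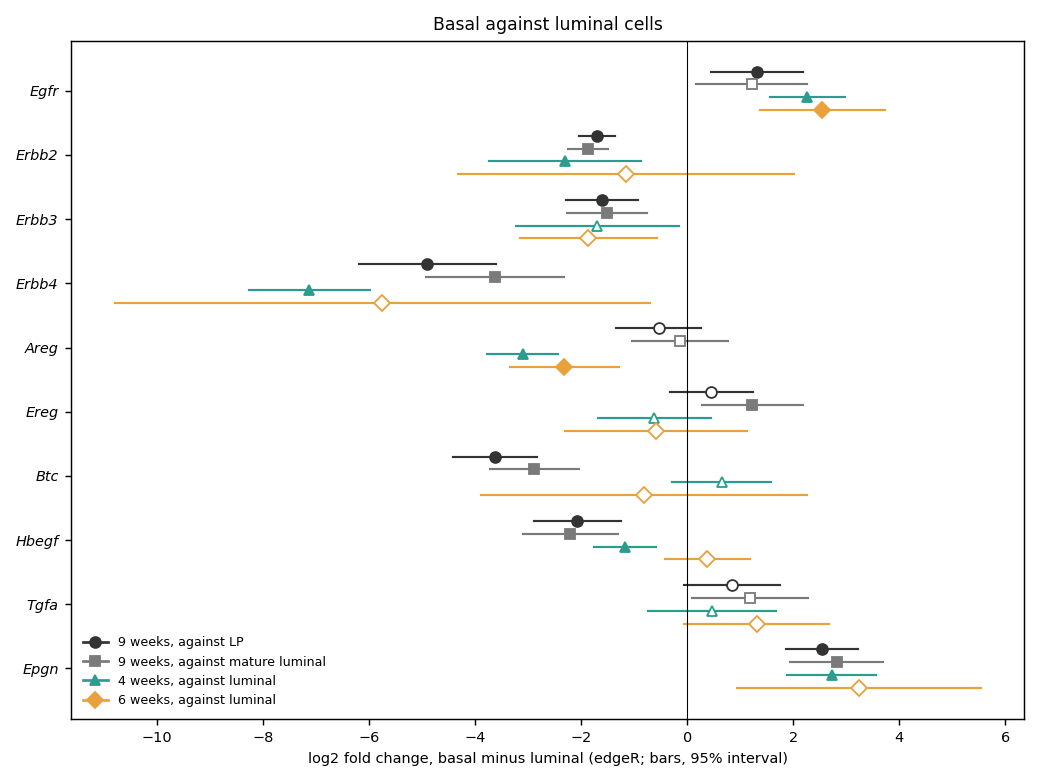
Log2 fold changes of basal over luminal populations (x axis) for the 10 genes, with 95% confidence intervals, at 9 weeks against luminal progenitors (LP) and mature luminal cells and at 4 and 6 weeks against luminal cells, where filled symbols passed an adjusted p of 0.05 over all genes tested. Egfr and Epgn lie above 0 and Erbb2, Erbb3 and Erbb4 below it in all 4 comparisons, not all past the threshold, and Areg is well below 0 at 4 and 6 weeks and near 0 at 9 weeks.

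The same division was followed in the wider pathway through lists of 56 genes, of which 50 were in the count tables. Among the other ligands, *Nrg1* and *Nrg2*, neuregulins that bind ERBB3 and ERBB4, were higher in basal cells than in progenitors (*Nrg1*: log2 fold change 4.30 ± 0.46, adjusted p = 8.7e-06. *Nrg2*: log2 fold change 5.11 ± 0.41, adjusted p = 1.0e-06), and *Nrg4*, a ligand of ERBB4, was lower (log2 fold change -1.31 ± 0.47, adjusted p = 0.033). *Erbb3* and *Erbb4*, for the receptors of the neuregulins of *Nrg1* and *Nrg2*, were higher in the luminal cells. Of the inhibitors and turnover genes, 8 of 13 were higher and 1 lower in basal cells than in progenitors, with a median log2 fold change of 1.17 against 0.06 over all genes. They included the phosphatase gene *Dusp6* (log2 fold change 2.13 ± 0.29, adjusted p = 5.8e-05) and the ERK pathway inhibitor genes *Spry1* (log2 fold change 2.12 ± 0.31, adjusted p = 8.2e-05) and *Spred2* (log2 fold change 1.27 ± 0.18, adjusted p = 8.1e-05), while *Rnf41*, for the ERBB3 ubiquitin ligase NRDP1, had a log2 fold change of 1.17 ± 0.15 (adjusted p = 3.0e-05). Of the early targets, 4 of 9 were higher and none lower, with the ETS factor gene *Etv5* the farthest (log2 fold change 3.17 ± 0.43, adjusted p = 4.9e-05), followed by *Etv4* (log2 fold change 2.62 ± 0.60, adjusted p = 0.0026), *Fosl1* (log2 fold change 1.34 ± 0.29, adjusted p = 0.0020) and *Myc* (log2 fold change 0.57 ± 0.22, adjusted p = 0.041).

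Of 6 shedding genes, 1 was higher and 3 lower in basal cells than in progenitors. They were the protease genes *Adam10* (log2 fold change -1.91 ± 0.26, adjusted p = 4.7e-05), *Adam17* (log2 fold change -1.90 ± 0.37, adjusted p = 7.9e-04) and *Adam9* (log2 fold change -1.77 ± 0.41, adjusted p = 0.0027), and *Rhbdf1*, a cofactor of ADAM17 (log2 fold change 1.02 ± 0.14, adjusted p = 5.9e-05). Adaptors and kinases divided with 5 higher and 4 lower of 18. In all, 20 of the 50 were higher and 9 lower against progenitors, where 27% and 23% of all genes were. Against mature luminal cells, 17 were higher and 3 lower, where 20.4% and 18.4% of all genes were. Of the inhibitors there, 8 of 13 were higher and none lower, with *Spry1* (log2 fold change 3.26 ± 0.40, adjusted p = 4.3e-05), *Spred1* (log2 fold change 2.29 ± 0.36, adjusted p = 2.7e-04), *Spry4* (log2 fold change 2.74 ± 0.44, adjusted p = 2.9e-04) and *Socs5* (log2 fold change 2.66 ± 0.44, adjusted p = 4.0e-04) at the smallest adjusted p.

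Between luminal progenitors and mature luminal cells none of the 10 members passed edgeR's test, where 23.4% of genes did. An unadjusted p under 0.05 was found for 2 members, and DESeq2 called 2. These tests and the share of genes also count the PNA+ and Cd49b+ libraries as separate. The libraries overlapped for all 10 members, where 9.23% of genes did not overlap (4.44% higher and 4.79% lower in progenitors). *Erbb4* was nearest (log2 fold change 1.28, standard error 0.46, adjusted p = 0.061), followed by *Btc* (log2 fold change 0.74 ± 0.30, adjusted p = 0.085), both higher in progenitors. With libraries of 1 number and genotype as a block both passed (*Erbb4*: log2 fold change 1.37, adjusted p = 0.0044. *Btc*: log2 fold change 0.72, adjusted p = 0.042), and *Erbb4* also passed without *Cdkn1b*-/- mature luminal library 2 (log2 fold change 2.27, adjusted p = 0.022) or *Cdkn1b*-/- PNA+ library 1 (adjusted p = 0.043), and *Areg* without the former (log2 fold change 1.33, adjusted p = 0.023). The *Cdkn1b*-/- mature luminal library 2 held 110.0 CPM of hormone-sensing markers against 31.2 in its replicate, and *Erbb4* was 8.83 CPM there against 1.05 in the replicate. Between PNA+ and Cd49b+ progenitors none of the 10 members and none of 11725 genes passed, with 419 genes at an unadjusted p under 0.05 and 40 genes called by DESeq2, no member among them. The 95% intervals of the members' log2 differences reached from -1.47 (*Epgn*) to 1.25 (*Ereg*), and the narrowest was that of *Erbb2*, at -0.20 to 0.50.

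Other members also had close followers over the 16 libraries, given with Pearson r in parentheses. For *Egfr* they were *Cachd1* (0.95), *Etv4* (0.93), *Papd7* (0.93), of which *Etv4* is a target on the pathway list. For *Erbb2* they were *C5ar2* (0.98), *Cited2* (0.98), *Ctla2a* (0.98), for *Erbb3* *Dock8* (0.99), *Rbm47* (0.98), for *Hbegf* *Tmprss2* (0.99), *Duox1* (0.99), *Pkib* (0.99), for *Areg* *Clstn2* (0.91), *Mum1l1* (0.89), *Rbak* (0.87) and for *Tgfa* *Snx29* (0.95), *Foxn3* (0.94). The libraries also differed by number within a genotype: *Egfr*, *Erbb3*, *Hbegf* and *Tgfa* were higher in *Cdkn1b*-/- library 1 than 2 and in *Cdkn1b*+/+ library 2 than 1 in all 4 populations, that is in 8 of 8 pairs, while *Erbb4* and *Areg* followed that direction in 2 of 8. The direction was read from these same values, and the share of all genes that follow it is not given. Populations of 1 number and genotype correlated (r from 0.26 to 0.79), so the pairs are not independent.

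At 4 weeks, *Egfr* was again higher and *Erbb2* and *Erbb4* lower in basal than in luminal cells, and *Areg* was lower in basal cells. In basal against luminal cells, 6 of 10 members passed (*Egfr* and *Epgn* higher in basal cells, *Erbb2*, *Erbb4*, *Areg* and *Hbegf* lower), where 35.1% of 12082 genes passed. *Egfr* was 56.6, 44.6 and 61.0 CPM in *Cdkn1b*+/+ and 16.7 and 84.5 CPM in *Cdkn1b*-/- basal libraries, and 9.56, 16.3 and 14.4 CPM in *Cdkn1b*+/+ and 8.15, 5.60 and 12.5 CPM in *Cdkn1b*-/- luminal libraries. The lowest basal library, *Cdkn1b*-/- 1, was just above the highest luminal one (log2 fold change 2.27, standard error 0.33, adjusted p = 1.2e-04). *Erbb4* was 0.0971, 0.0526 and 0.219 CPM in *Cdkn1b*+/+ and 0.0577 and 0.0484 CPM in *Cdkn1b*-/- basal libraries and 8.08, 22.9 and 19.4 CPM in *Cdkn1b*+/+ and 6.77, 8.06 and 14.3 CPM in *Cdkn1b*-/- luminal libraries. Its basal libraries held under 0.25 CPM and its luminal libraries over 6 CPM (log2 fold change -7.13, standard error 0.53, adjusted p = 5.3e-07). *Areg* was 59.3, 44.7 and 65.5 CPM in *Cdkn1b*+/+ and 59.9 and 38.5 CPM in *Cdkn1b*-/- basal libraries and 385, 302 and 568 CPM in *Cdkn1b*+/+ and 641, 430.0 and 556 CPM in *Cdkn1b*-/- luminal libraries. Every luminal library was over 300 CPM and every basal one under 70 (log2 fold change -3.10, standard error 0.31, adjusted p = 5.9e-06).

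*Epgn* was 17.0, 16.2 and 29.7 CPM in *Cdkn1b*+/+ and 7.91 and 13.6 CPM in *Cdkn1b*-/- basal libraries and 2.68, 1.45 and 2.56 CPM in *Cdkn1b*+/+ and 3.81, 0.985 and 2.18 CPM in *Cdkn1b*-/- luminal libraries, without overlap (log2 fold change 2.72, standard error 0.39, adjusted p = 1.1e-04). *Hbegf* was 426, 353 and 356 CPM in *Cdkn1b*+/+ and 294 and 314 CPM in *Cdkn1b*-/- basal libraries and 1138, 723 and 636 CPM in *Cdkn1b*+/+ and 646, 889 and 631 CPM in *Cdkn1b*-/- luminal libraries, also without overlap (log2 fold change -1.17, standard error 0.27, adjusted p = 0.0041). *Erbb2* was 1.99, 4.99 and 4.98 CPM in *Cdkn1b*+/+ and 0.520 and 6.01 CPM in *Cdkn1b*-/- basal libraries and 4.16, 37.1 and 32.3 CPM in *Cdkn1b*+/+ and 4.40, 9.85 and 27.5 CPM in *Cdkn1b*-/- luminal libraries. These overlapped, since luminal *Cdkn1b*+/+ library 1 and *Cdkn1b*-/- library 1 were at the basal level, and the difference passed (log2 fold change -2.31, standard error 0.66, adjusted p = 0.015). *Erbb3* was low in the same pair of luminal libraries and in *Cdkn1b*-/- luminal library 2: 27.8, 208 and 165 CPM in *Cdkn1b*+/+ and 18.9, 22.7 and 130.3 CPM in *Cdkn1b*-/- luminal libraries, with 12.2, 27.5 and 27.4 CPM in *Cdkn1b*+/+ and 2.48 and 59.5 CPM in *Cdkn1b*-/- basal libraries. Its difference did not pass (log2 fold change -1.70, standard error 0.71, adjusted p = 0.085), but did so with each animal as a block over the 10 libraries of 5 animals that gave both cell types (log2 fold change -2.05, adjusted p = 2.5e-04), and without *Cdkn1b*+/+ luminal library 1 (adjusted p = 0.046) or *Cdkn1b*-/- basal library 2 (adjusted p = 0.0056). Libraries did not overlap for 5 of the 10 members, where 25.0% of all genes did not overlap. *Ereg* was 0.872 to 3.4 CPM over the 5 basal and 0.991 to 5.91 CPM over the 6 luminal libraries (log2 fold change -0.62 ± 0.49, adjusted p = 0.37). *Btc* was 2.21 to 6.17 and 1.23 to 3.02 CPM (log2 fold change 0.65 ± 0.43, adjusted p = 0.28). *Tgfa* was 8.43 to 108 and 13.5 to 77.0 CPM (log2 fold change 0.47 ± 0.56, adjusted p = 0.56), and none of these 3 passed.

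At 6 weeks, 2 of 10 members passed, *Egfr* higher and *Areg* lower in basal cells, where 5.65% of 11921 genes passed. *Egfr* was 124, 42.6 and 77.0 CPM in *Cdkn1b*+/+ and 66.4 and 64.1 CPM in *Cdkn1b*-/- basal libraries and 5.26 and 16.4 CPM in *Cdkn1b*+/+ and 13.7 and 12.2 CPM in *Cdkn1b*-/- luminal libraries. The lowest basal library was above the highest luminal one (log2 fold change 2.55, standard error 0.53, adjusted p = 0.023), but the difference did not pass with each animal as a block over 8 libraries of 4 animals (log2 fold change 2.63, adjusted p = 0.084) or without any 1 of 4 libraries (*Cdkn1b*+/+ basal 1, *Cdkn1b*+/+ luminal 1, *Cdkn1b*-/- basal 1 or *Cdkn1b*-/- basal 2, adjusted p from 0.065 to 0.092). *Areg* was 192, 363 and 319 CPM in *Cdkn1b*+/+ and 205 and 94.7 CPM in *Cdkn1b*-/- basal libraries and 1149 and 1618 CPM in *Cdkn1b*+/+ and 1411 and 273 CPM in *Cdkn1b*-/- luminal libraries. *Cdkn1b*-/- luminal library 2, in which fewer genes were detected, was within the basal range, and the call (log2 fold change -2.32, standard error 0.46, adjusted p = 0.018) was lost without *Cdkn1b*+/+ luminal library 2 (adjusted p = 0.066) or *Cdkn1b*-/- basal library 2 (adjusted p = 0.10). Without *Cdkn1b*-/- luminal library 2, *Egfr* (log2 fold change 2.67, adjusted p = 0.031) and *Areg* (log2 fold change -2.61, adjusted p = 0.0055) passed, as did *Erbb3* (log2 fold change -2.26, adjusted p = 0.0055). In that library *Erbb2*, *Erbb4*, *Btc* and *Epgn* had no count.

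The other members did not pass edgeR's test at 6 weeks. DESeq2 also called *Epgn* (adjusted p = 0.0030), *Erbb3* (adjusted p = 0.016) and *Erbb4* (adjusted p = 0.041). *Erbb4* was 3.69, 0 and 3.26 CPM in *Cdkn1b*+/+ and 0 and 0 CPM in *Cdkn1b*-/- basal libraries and 2.83 and 18.2 CPM in *Cdkn1b*+/+ and 15.0 and 0 CPM in *Cdkn1b*-/- luminal libraries. It had no count in 3 of 5 basal libraries and 1 luminal library, and its adjusted p was 0.18. *Epgn* was 125, 40.7 and 19.9 CPM in *Cdkn1b*+/+ and 33.7 and 24.4 CPM in *Cdkn1b*-/- basal libraries and 12 and 8.37 CPM in *Cdkn1b*+/+ and 4.26 and 0 CPM in *Cdkn1b*-/- luminal libraries. These did not overlap (log2 fold change 3.25 ± 1.03, adjusted p = 0.11), and without *Cdkn1b*-/- luminal library 2, in which few genes were detected, the difference was 2.79 (adjusted p = 0.055). It passed without *Cdkn1b*-/- luminal library 1 (log2 fold change 7.0, adjusted p = 0.0064), a fit whose only *Cdkn1b*-/- luminal library is the one with few genes and no *Epgn* count. Libraries did not overlap for *Egfr* and *Epgn*, 2 of 10 members, where 10.6% of genes did not overlap. *Erbb2* was 0 to 23.6 CPM over the 5 basal and 0 to 74.0 CPM over the 4 luminal libraries (log2 fold change -1.16 ± 1.41, adjusted p = 0.72), and *Erbb3* 11.2 to 54.1 and 10.1 to 209 CPM (log2 fold change -1.86 ± 0.57, adjusted p = 0.097). *Hbegf*, lower in basal cells at 4 and 9 weeks, was 409 to 1148 and 368 to 917 CPM (log2 fold change 0.38 ± 0.36, adjusted p = 0.62). *Tgfa* was 10.9 to 113 and 19.8 to 53.4 CPM (log2 fold change 1.31 ± 0.61, adjusted p = 0.25) and passed without *Cdkn1b*+/+ basal library 3 (adjusted p = 0.040). *Ereg* (log2 fold change -0.59 ± 0.77, adjusted p = 0.74) and *Btc* (log2 fold change -0.82 ± 1.37, adjusted p = 0.80) overlapped between the cell types.

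In the wider pathway at 4 weeks, 7 of 13 inhibitors were higher and 1 lower in basal than in luminal cells, and 12 of the 49 pathway genes tested were higher and 3 lower, where 20.3% and 14.8% of all genes were. At 6 weeks 5 were higher and none lower, where 3.49% and 2.16% of all genes were. *Nrg1* was higher in basal cells at 4 weeks (log2 fold change 3.56 ± 0.29, adjusted p = 1.0e-06) and at 6 weeks (log2 fold change 5.07 ± 0.99, adjusted p = 0.018), and *Etv5* was higher at 4 weeks (log2 fold change 2.62 ± 0.36, adjusted p = 8.4e-05).

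**Figure D3:**
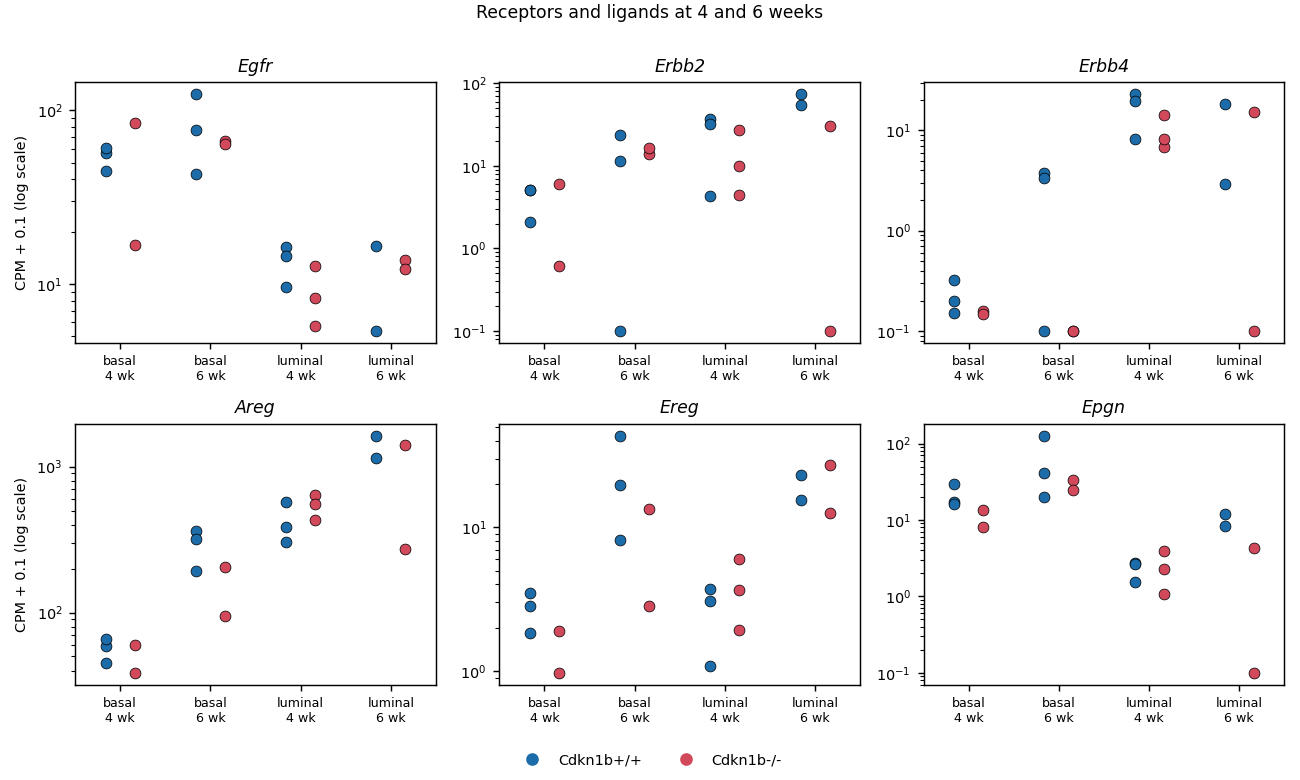
CPM + 0.1 (log axis) of Egfr, Erbb2, Erbb4, Areg, Ereg and Epgn in the 20 libraries of 4-week and 6-week rats, 1 panel per gene, by cell type and age, with 1 point per library and colour for the genotype. In Cdkn1b+/+ basal cells the Areg and Ereg points at 6 weeks lie above those at 4 weeks, and Erbb4 is at 0 in 3 of the 5 basal libraries of 6 weeks and at 3.69 and 3.26 CPM in the other two.

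Between 4 and 6 weeks, amphiregulin and epiregulin rose in *Cdkn1b*+/+ basal cells. *Areg* was 59.3, 44.7 and 65.5 CPM at 4 weeks and 192, 363 and 319 CPM at 6 weeks (log2 fold change 2.55, standard error 0.50, adjusted p = 0.0050). *Ereg* was 3.4, 2.73 and 1.75 CPM at 4 weeks and 19.5, 8.11 and 43.0 CPM at 6 weeks (log2 fold change 3.34, standard error 0.88, adjusted p = 0.024). For both, the lowest 6-week library was above the highest 4-week library, and 37.2% of genes did not overlap in either direction. These were 2 of 10 members, where 10.5% of 12572 genes passed, 606 higher and 714 lower at 6 weeks (491 and 895 with DESeq2's size factors in place of TMM). The *Areg* call held without each library in turn, whereas the *Ereg* call was lost without any one of the 4-week libraries (adjusted p from 0.070 to 0.091) or without 6-week library 3 (log2 fold change 2.37, adjusted p = 0.081). Among the other members, *Hbegf* was 426, 353 and 356 CPM at 4 weeks and 672, 1148 and 409 CPM at 6 weeks (log2 fold change 1.13 ± 0.40, adjusted p = 0.072) and passed without 6-week library 3 (log2 fold change 1.30, adjusted p = 0.046), the smallest of that age. *Erbb4* was 0.0971, 0.0526 and 0.219 CPM and 3.69, 0 and 3.26 CPM (log2 fold change 4.30 ± 1.58, adjusted p = 0.087) and passed without 6-week library 2, which held none (adjusted p = 0.042). *Erbb4* and *Areg* were both higher in luminal than in basal cells at 4 weeks. Marker levels of the 4-week and 6-week sorts are not given here, and a part of luminal cells in the basal libraries was not tested. *Epgn* was 17.0, 16.2 and 29.7 CPM and 125, 40.7 and 19.9 CPM, with overlap (log2 fold change 1.68 ± 0.88, adjusted p = 0.22). The log2 differences of the other 5 ran from -0.25 (*Erbb3*) to 1.65 (*Erbb2*).

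In *Cdkn1b*+/+ luminal cells no member passed edgeR's test, where 3.10% of genes did, with 3 members at an unadjusted p under 0.05 and 2 called by DESeq2. *Areg* was 385, 302 and 568 CPM at 4 weeks and 1149 and 1618 CPM at 6 weeks (log2 fold change 1.74, standard error 0.52, adjusted p = 0.073). *Ereg* was 0.991, 2.95 and 3.64 CPM and 22.8 and 15.4 CPM (log2 fold change 2.97, standard error 0.92, adjusted p = 0.078). In both genes every 6-week luminal library was above every 4-week one, as was so, in either direction, for 51.3% of all genes. Whether the age effect differed between the cell types was tested with a contrast added after seeing the data, and no member passed (lowest adjusted p = 0.44). *Btc* was 3.02, 2.71 and 1.52 CPM at 4 weeks and 19.0 and 11.1 CPM at 6 weeks in luminal cells (log2 fold change 2.61 ± 1.33, adjusted p = 0.28). The labels do not say whether the ages were processed together, so age and processing date cannot be told apart.

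Among early targets of the pathway, *Fos* fell with age in basal (log2 fold change -3.45 ± 0.43, adjusted p = 3.8e-04) and luminal cells (log2 fold change -2.65 ± 0.48, adjusted p = 0.0079), as did *Egr1* (log2 fold change -1.60 ± 0.38, adjusted p = 0.014 in basal and log2 fold change -3.39 ± 0.48, adjusted p = 0.0035 in luminal cells), both immediate-early genes. *Fosl1* rose in basal (log2 fold change 1.71 ± 0.41, adjusted p = 0.015) and luminal cells (log2 fold change 1.97 ± 0.44, adjusted p = 0.024), and *Etv5* fell in basal cells (log2 fold change -2.35 ± 0.63, adjusted p = 0.025). Whether these changes in early targets came from ErbB signalling, from other signals or from the handling of the cells was not tested. Age and processing date cannot be told apart for them either. In basal cells, the iRhom gene *Rhbdf2* (log2 fold change 2.10 ± 0.66, adjusted p = 0.049) and the adaptor gene *Grb2* (log2 fold change 1.08 ± 0.34, adjusted p = 0.049) rose. In all, 5 of the 49 pathway genes tested rose and 3 fell in basal cells, where 4.82% and 5.68% of all genes did, and 1 of 49 rose and 2 fell in luminal cells, where 1.19% and 1.92% did.

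The study's main question was what the loss of *Cdkn1b* changes, and no member passed in any of the 7 comparisons of genotypes at 9, 4 and 6 weeks. In 9-week luminal progenitors, where 3.4% of 12809 genes passed (2.12% higher and 1.29% lower in *Cdkn1b*-/-), 3 members had an unadjusted p under 0.05. That share counts the PNA+ and Cd49b+ libraries of 1 number and genotype as separate, although their deviations from the group means correlated (r = 0.63 in *Cdkn1b*-/- and 0.79 in *Cdkn1b*+/+ libraries). With each such pair summed to 1 library, 2 against 2, 5 of 12740 genes passed and no member did (*Erbb2*: log2 fold change 0.60, adjusted p = 0.73. *Erbb4*: log2 fold change -1.37, adjusted p = 0.84. *Areg*: log2 fold change -0.54, adjusted p = 0.96). The values that follow treat the libraries as separate. *Erbb2* was 37.9 and 35.9 (PNA+) and 37.6 and 33.0 (Cd49b+) CPM in *Cdkn1b*+/+ and 44.7 and 46.7 (PNA+) and 43.7 and 43.4 (Cd49b+) CPM in *Cdkn1b*-/- progenitors. All 4 *Cdkn1b*-/- libraries were above all 4 *Cdkn1b*+/+ libraries (log2 fold change 0.63, standard error 0.17, adjusted p = 0.058), and the difference passed with DESeq2 (log2 fold change 0.63, adjusted p = 0.0049) and without *Cdkn1b*-/- Cd49b+ library 2 (log2 fold change 0.72, adjusted p = 0.020). *Erbb4* was 28.8 and 16.4 (PNA+) and 31.3 and 13.5 (Cd49b+) CPM in *Cdkn1b*+/+ and 3.26 and 10.5 (PNA+) and 4.05 and 11.5 (Cd49b+) CPM in *Cdkn1b*-/- progenitors. All 4 *Cdkn1b*-/- libraries were below all 4 *Cdkn1b*+/+ libraries (log2 fold change -1.36, standard error 0.51, adjusted p = 0.17). *Areg* was 149 and 135 (PNA+) and 150.4 and 102 (Cd49b+) CPM in *Cdkn1b*+/+ and 80.3 and 80.3 (PNA+) and 54.5 and 90.7 (Cd49b+) CPM in *Cdkn1b*-/- progenitors. It too was lower in every *Cdkn1b*-/- library (log2 fold change -0.50, standard error 0.42, adjusted p = 0.57). Libraries did not overlap for these 3 of 10 members, where 17.8% of genes did not overlap (3.04% higher and 14.7% lower in *Cdkn1b*-/-), and the members had a median log2 fold change of 0.22 and all genes tested one of 0.03. *Ereg* was 0.683 and 1.64 (PNA+) and 0.752 and 1.18 (Cd49b+) CPM in *Cdkn1b*+/+ and 2.19 and 1.38 (PNA+) and 1.89 and 1.64 (Cd49b+) CPM in *Cdkn1b*-/- progenitors, with overlap (log2 fold change 1.06 ± 0.43, adjusted p = 0.21). The other 6 members overlapped between genotypes, with log2 differences from -0.13 (*Egfr*) to 0.60 (*Btc*).

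Beside *Erbb4*, the hormone-sensing markers summed to 82.9 to 121 CPM in *Cdkn1b*-/- and 223 to 314 CPM in *Cdkn1b*+/+ progenitors, over 4 of the 5 genes of the list. Milk protein genes (*Csn2*, *Csn3*, *Wap* and *Lalba*) summed to 90629.6 to 166997 and 17097 to 44878 CPM. Neither pair of summed ranges overlapped. Taken singly, *Csn3* (12778 to 43418 CPM in *Cdkn1b*-/- and 12079 to 18709 in *Cdkn1b*+/+) and *Lalba* (1015 to 11090 and 3108 to 4105) overlapped, and *Csn2* and *Wap* did not. The part of either marker list in the members' values was not tested. CPM is a share of all reads, so these totals enter each member's CPM. With library totals in place of TMM factors, the median log2 difference of all genes moved from 0.03 to -0.27, and the calls from 271 higher and 165 lower to 129 higher and 513 lower. Under that scaling the differences of *Erbb3* and *Tgfa*, which did not pass in either, changed sign, *Erbb2* was 0.31 (adjusted p = 0.24) and *Erbb4* -1.62 (adjusted p = 0.11). Of the 50 pathway genes tested, 1 was higher and 1 lower in *Cdkn1b*-/- progenitors, beside 271 higher and 165 lower of all 12809 genes. They were *Nrg4* (log2 fold change 1.93 ± 0.48, adjusted p = 0.045), with a mean of only 0.44 CPM over the progenitor libraries, and the adaptor gene *Shc1* (log2 fold change -1.67 ± 0.29, adjusted p = 0.0087). Both calls treat the PNA+ and Cd49b+ libraries as separate.

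In 9-week basal cells 0.0546% (7 higher and 0 lower in *Cdkn1b*-/- by edgeR, with 520 lower at an unadjusted p under 0.05, or 5 and 6 with library totals) and in mature luminal cells 0.133% of genes passed between genotypes. *Epgn* in basal cells was 14.9 and 10.6 CPM in *Cdkn1b*+/+ and 3.66 and 3.27 CPM in *Cdkn1b*-/- libraries, without overlap (log2 fold change -1.62, standard error 0.54, adjusted p = 0.39). It was also lower in both *Cdkn1b*-/- libraries of mature luminal cells (log2 fold change -1.0 ± 0.58, adjusted p = 0.83). *Egfr* in basal cells was 141 and 146 CPM against 105 and 55.9 CPM (log2 fold change -0.58 ± 0.68, adjusted p = 0.85). In basal cells, the *Cdkn1b*-/- and *Cdkn1b*+/+ ranges were apart for 7 of 10 members, all lower in *Cdkn1b*-/-, where 41.7% of genes did not overlap and 30.7% did so with the lower level in *Cdkn1b*-/-. *Erbb2* in mature luminal cells was 37.7 and 31.8 CPM in *Cdkn1b*+/+ and 43.7 and 52.3 CPM in *Cdkn1b*-/- libraries, without overlap, as in 29.3% of genes (log2 fold change 0.63 ± 0.24, adjusted p = 0.53). The differences of *Erbb2* between genotypes in basal, progenitor and mature luminal cells were 0.41, 0.63 and 0.63 on the log2 scale. No member passed a test of the difference in genotype effect between progenitors and basal cells (lowest adjusted p = 0.64) or between progenitors and mature luminal cells (lowest adjusted p = 1.0), with 3 and 0 members at an unadjusted p under 0.05.

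**Figure D4:**
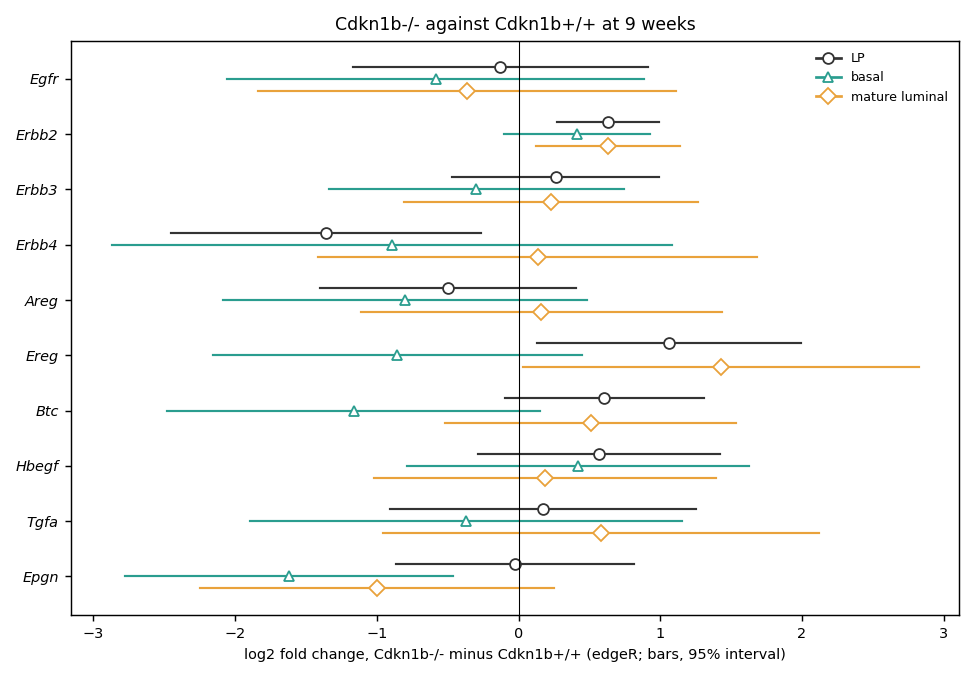
Log2 fold changes of Cdkn1b-/- over Cdkn1b+/+ (x axis) for the 10 genes at 9 weeks, with 95% confidence intervals, in luminal progenitors (LP), basal and mature luminal cells. All symbols are open, as none passed an adjusted p of 0.05, and for each population Erbb2 has the narrowest interval.

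At 4 weeks, no gene passed between genotypes in luminal or basal cells by edgeR's test (435 and 310 of 12082 at an unadjusted p under 0.05, and 0 and 1 by DESeq2), nor did any member, with log2 differences from -1.15 (*Erbb3*) to 0.78 (*Ereg*) in luminal and from -0.98 (*Erbb4*) to 0.42 (*Erbb3*) in basal cells. *Areg* in 4-week luminal cells was 385, 302 and 568 CPM in *Cdkn1b*+/+ and 641, 430.0 and 556 CPM in *Cdkn1b*-/- rats, with overlap (log2 fold change 0.54 ± 0.36, adjusted p = 0.85, 95% interval -0.25 to 1.33). At 6 weeks no gene passed either (1961 and 1072 of 11921 at an unadjusted p under 0.05, and 1332 and 330 by DESeq2). *Areg* in 6-week luminal cells was 1149 and 1618 CPM in *Cdkn1b*+/+ and 1411 and 273 CPM in *Cdkn1b*-/- rats (log2 fold change -0.80 ± 0.66, adjusted p = 0.55). The lower *Cdkn1b*-/- value came from library 2, in which fewer genes were detected, and without it the log2 difference was -0.15 (adjusted p = 0.98). Without library 1, the library with few genes was alone in its group, and its spread was assumed to be that of the other groups. In that fit 2269 of 12695 genes passed, among them *Erbb3* (log2 fold change -3.77, adjusted p = 0.010) and *Epgn*, which had no count there, so these calls describe that library.

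The E2 experiment was made to set cells that lack *Cdkn1b* beside those of hormonally stimulated rats, and it used a strain prone to E2-induced mammary tumours (ACI) and a resistant one (BN). No gene and no member passed for E2 against control or ACI against BN in either cell type (468 and 527 of 11499 genes in luminal cells and 181 and 89 of 11288 in basal cells at an unadjusted p under 0.05, and 89, 312, 74 and 8 by DESeq2, no member among them). Basal *Erbb4* and *Btc* were too low for the test. *Erbb4* was 35.9 and 32.0 CPM in ACI control, 0 and 1.04 CPM in ACI E2, 0 CPM in the BN control and 1.78 CPM in the BN E2 luminal libraries. It was high only in the 2 ACI control libraries, and it had no count in any of the 6 basal libraries. In ACI controls the lowest luminal level was at least 245-fold higher than the level that 3 counts per basal library would give. The E2 contrast gave log2 fold change -4.59 ± 4.64, adjusted p = 1.0, a value that rests on libraries without a count, and -0.34 without E2-treated ACI luminal library 1, in which few genes were detected. Without that library the E2 difference of *Areg* was -1.28 in place of -0.80, that of *Hbegf* -1.05 in place of -1.53, and that of *Tgfa* 0.51 in place of -0.87, all on the log2 scale, and the ACI over BN difference of *Areg* was 2.00 and that of *Erbb2* 0.32. No member passed in these fits either.

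*Areg* was 249.8 and 248 CPM in ACI control, 193 and 34.3 CPM in ACI E2, 14.2 CPM in the BN control and 24.8 CPM in the BN E2 luminal libraries. E2-treated ACI library 2 was near the BN level and library 1 near the controls (log2 fold change -0.80 ± 0.82, adjusted p = 1.0 for E2 and log2 fold change 2.43 ± 0.95, adjusted p = 0.93 for ACI over BN, all 4 ACI libraries above both BN libraries, as in 17.0% of genes without overlap in either direction). *Ereg* was 7.41 and 8.02 CPM in ACI control, 0 and 0 CPM in ACI E2, 0 CPM in the BN control and 0.870 CPM in the BN E2 luminal libraries. The lowest ACI control level was at least 33.7-fold higher than 3 counts per E2-treated ACI luminal library would give, and the contrast over both strains did not pass (adjusted p = 1.0). That floor was set by E2-treated ACI luminal library 1, in which few genes were detected. Transcripts lost in preparation could also leave no count, so the ratio is not a least size of an E2 effect. *Egfr* was 18.2 and 7.51 CPM in ACI control, 138 and 38.3 CPM in ACI E2, 26.3 CPM in the BN control and 46.9 CPM in the BN E2 luminal libraries. All 3 E2-treated libraries were above all 3 controls, as in 9.96% of genes without overlap in either direction (log2 fold change 1.85 ± 0.76, adjusted p = 1.0). E2-treated ACI luminal library 1 was the highest and had few genes detected, and without it the difference was 1.11 on the log2 scale (adjusted p = 0.84).

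*Hbegf* was 4622 and 2663 CPM in ACI control, 775 and 1077 CPM in ACI E2, 3569 CPM in the BN control and 3833 CPM in the BN E2 luminal libraries. The E2-treated ACI libraries were the lowest and the E2-treated BN library was within the control range (log2 fold change -1.53 ± 0.79, adjusted p = 1.0). *Tgfa* was 93.3 and 70.3 CPM in ACI control, 0 and 42.8 CPM in ACI E2, 8.53 CPM in the BN control and 47.3 CPM in the BN E2 luminal libraries, so that 1 E2-treated ACI library held none and the other held about as much as the E2-treated BN library. Among receptors, *Erbb2* was 43.6 and 35.5 CPM in ACI control, 111 and 55.7 CPM in ACI E2, 29.9 CPM in the BN control and 24.6 CPM in the BN E2 luminal libraries and *Erbb3* 159.9 and 94.9 CPM in ACI control, 215 and 78.2 CPM in ACI E2, 33.9 CPM in the BN control and 145 CPM in the BN E2 luminal libraries. ACI levels of *Erbb2* were above BN levels in every luminal library (log2 fold change 0.56 ± 0.55, adjusted p = 1.0). Whether the E2 effect differed between strains was tested with a contrast added after seeing the data, over all libraries, with 1 BN library per treatment, and no member passed in luminal (lowest adjusted p = 0.85) or basal cells (lowest adjusted p = 1.0).

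**Figure D5:**
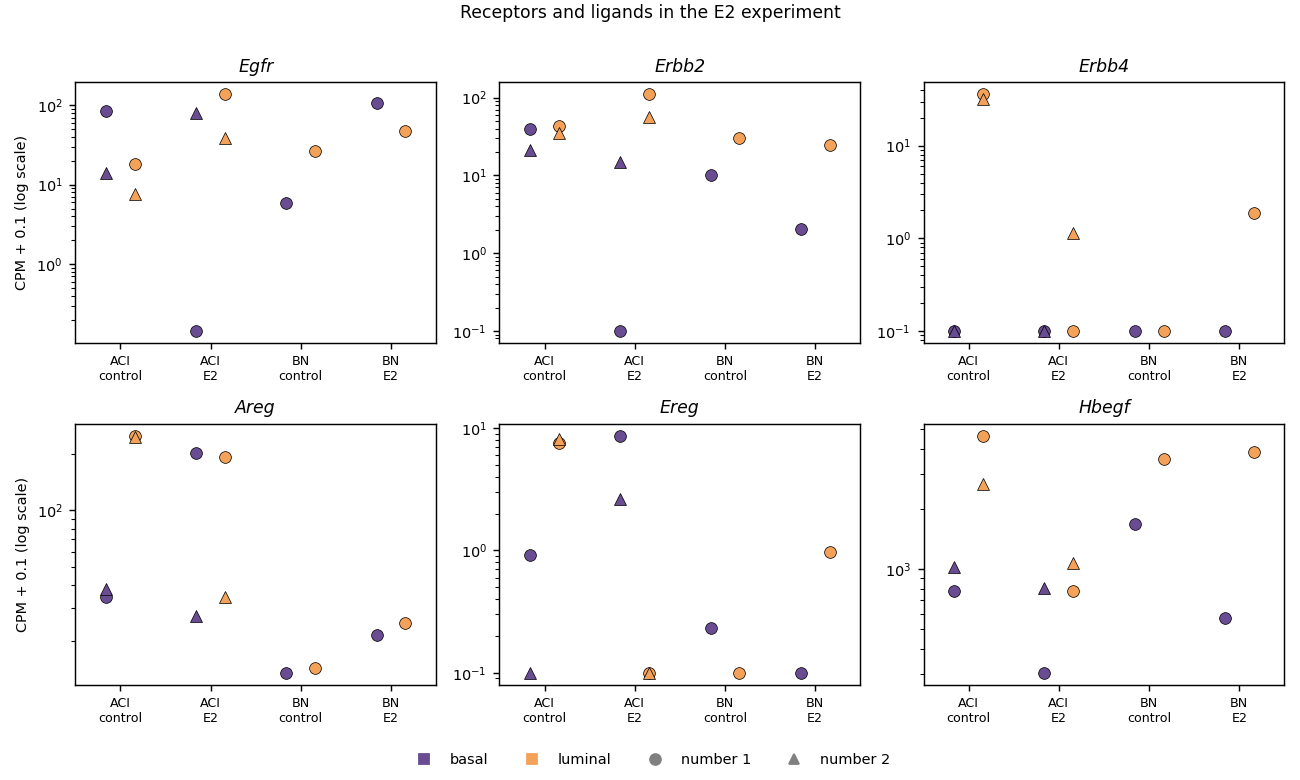
CPM + 0.1 (log axis) of Egfr, Erbb2, Erbb4, Areg, Ereg and Hbegf in the 12 libraries of the E2 experiment, 1 panel per gene, by strain and treatment, with 1 point per library, colour for the cell type and shape for the library number. Erbb4 is at 0 in all 6 basal libraries and above 30 CPM in the 2 ACI control luminal libraries.

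In basal cells of that experiment, *Egfr* was 85.3 and 13.9 CPM in ACI control, 0.0445 and 79.1 CPM in ACI E2, 5.79 CPM in the BN control and 107 CPM in the BN E2 basal libraries. E2-treated ACI basal library 1, in which 7716 genes were detected, held almost no *Egfr*, *Erbb3* or *Erbb2* but 202 CPM of *Areg* against 27.3 in its replicate. The basal E2 difference was 1.22 on the log2 scale for *Areg* and 0.82 for *Egfr*, and -0.12 and 2.10 without that library. The basal ACI over BN difference was 1.73 for *Areg* and 0.08 for *Egfr*, and 0.76 and 1.28 without it. None of these passed. Basal against luminal cells over all 12 libraries gave no member past the threshold, where 1.86% of 11808 genes passed, with 3 members at an unadjusted p under 0.05 and 3 called by DESeq2. *Hbegf* was the nearest (log2 fold change -1.69 ± 0.44, adjusted p = 0.073) and passed without E2-treated ACI luminal library 1 (log2 fold change -1.95, adjusted p = 0.031). *Hbegf* was 303 to 1672 CPM over the 6 basal libraries and 775 to 4622 CPM over the 6 luminal ones, with overlap. *Egfr*, which was higher in basal cells at 4 and 6 weeks and in basal cells than in progenitors at 9 weeks, had a log2 difference of 0.31 here with a 95% interval of -2.04 to 2.67, and of 0.89 without both libraries with few genes. The luminal libraries here name Cd49b and PNA in their labels, so they may not be the same luminal population as at the other ages.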

How the data were processed

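Counts of single-end reads per refGene gene were deposited by the authors for each library, made from low-input SMARTer libraries of cells sorted with Cd24, Cd29, Cd49b and PNA, aligned with STAR 2.5.1b to rn6 and counted with HTSeq. The strand setting is not given in the sources used here, so overlapping and antisense genes cannot be told apart. Reads left unassigned to a gene (47.1 to 77.0% per library) stayed out of library sizes. Assigned reads per library numbered 21545344 to 33859550 at 9 weeks, 14674040 to 23045345 at 4 weeks, 7985619 to 16390460 at 6 weeks and 13659389 to 25280421 in the E2 experiment. CPM, TMM factors, filterByExpr and quasi-likelihood tests were computed with edgeR 4.0.16 in R 4.3.3, on the libraries of 1 age or experiment together, with Benjamini-Hochberg adjustment over all genes tested and a threshold of 0.05. In 9-week fits the PNA+ and Cd49b+ libraries of a genotype formed 1 progenitor group. Population differences are the mean of the differences within each genotype. E2 and strain were fitted as additive terms within each cell type, and low genes were filtered there by the design matrix. DESeq2 1.42.0, which the study used, was an alternative.

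At 9 weeks the deviations of libraries from their group means correlated between populations of 1 genotype and number (12 pairs, r from 0.26 to 0.79). Genotype and number were therefore used as a block in an alternative fit of population differences, while the main fits held no block. Between *Cdkn1b*+/+ and *Cdkn1b*-/- libraries of 1 number r was -0.30 to 0.00, so the numbers do not pair genotypes. At 4 and 6 weeks and in the E2 experiment the labels name the animal, which was the block in the alternative fits only. None of 28 replicate pairs agreed within counting noise (lowest chi-square per degree of freedom 45.2). All 10 members were named in every comparison, and of each pathway list at most 4 genes with the smallest adjusted p among those passing. Genes like a member were the 3 with the highest Pearson r of log2 CPM (prior count 2), for members with a mean of at least 5 CPM. A few genes that these rules pick are not reported here. A level of 0 was read against a floor of 3 counts per library, which allows for counting noise but not for transcripts lost in preparation. The members and lists were chosen with earlier results of these data known. Alternatives without libraries under 9500 genes, without the smallest 6-week basal library, with crossed numbers and with library totals, and most tests of differences between effects, were added after seeing the data. The tests were tested on simulated data. Promoters came from RefSeq (GRCr8). Progesterone receptor ChIP-seq peaks (rn6) were not analysed here, since no gene positions of that build were used.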

Additional observations from a re-analysis of the deposited data

How the results depend on the processing

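Of 3038 recomputed member differences, 0 called values changed sign, 29 lost and 49 gained the threshold, and 231 changed sign without passing in either fit. In counts of the 10 members called, 282 of 309 stayed within 1.5 times. A count of 0 in both fits was taken as staying, and most comparisons had 0 members called in the main fit. The 282 are therefore mostly fits without a call and are no measure of how stable the calls were. Between genotypes in 9-week progenitors (0 members), DESeq2 called 1, the number as a replicate block 1, the crossed pairing 3 and the compared libraries alone 1. The crossed pairing (*Cdkn1b*-/- library 1 with *Cdkn1b*+/+ library 2) was read from these same values, so its calls are no separate support. Between progenitors and mature luminal cells (0) no filter gave 1, DESeq2 2 and the block 2. For basal against luminal cells at 6 weeks (2) DESeq2 gave 5, the animal block 1, and each genotype's difference alone 0. For age in *Cdkn1b*+/+ luminal cells (0) DESeq2 gave 2, and for basal against luminal cells in the E2 experiment (0) it gave 3, and the fit without the libraries with few genes 1. Leaving out each library in turn gave 0 to 1 members between genotypes in progenitors, 0 to 2 between progenitors and mature luminal cells, 6 to 9 and 6 to 7 for basal against mature luminal cells and progenitors, 6 to 7 at 4 weeks, 0 to 3 at 6 weeks, 0 to 2 between genotypes in 6-week luminal cells, 1 to 3 for age in basal cells, 0 to 1 for basal against luminal cells in the E2 experiment and 0 elsewhere. The cause of these changes was not tested.

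Over all genes, the replicate block raised the calls from 2999 to 5865 between progenitors and mature luminal cells, from 0 to 185 between PNA+ and Cd49b+ progenitors, and, where numbers pair no genotypes, from 436 to 671 in progenitors, 7 to 14 in basal and 17 to 42 in mature luminal cells. Crossed pairing, which was read from these same data, gave 1284, 77 and 132 there. DESeq2 called 1096, 168 and 164 there, 1929 at 6 weeks against 673, 2640 and 1646 for age in basal and luminal cells against 1320 and 390, and 1693 against 220 for cell types in the E2 experiment, where leaving out libraries with few genes gave 728. Summed progenitor libraries gave 5 between genotypes, and the compared libraries alone 1 in basal and 0 in mature luminal cells. Each genotype's own difference gave 3953 (*Cdkn1b*+/+) and 4653 (*Cdkn1b*-/-) calls for basal cells against progenitors, 2672 and 3035 against mature luminal cells, 1406 and 0 between luminal populations, 2844 and 2491 at 4 weeks and 290 and 60 at 6 weeks. The mean age effect of both genotypes gave 402 and 93. No filter gave 54 and 8 calls between genotypes at 6 weeks in luminal and basal cells and 1 between strains in luminal cells. Library totals moved the split of calls between progenitors and mature luminal cells from 1502 higher and 1497 lower to 2031 and 979, and from 2608 and 2353 to 2910 and 1873 for basal against mature luminal cells, where *Egfr* (log2 fold change 1.39, adjusted p = 0.026) and *Tgfa* (1.35, adjusted p = 0.035) then passed. Alternatives for receptor peaks were not run. With 1 or 2 libraries in most groups, members at a few CPM, such as *Ereg* and *Btc*, have wide intervals.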
